A study of Mus musculus with 8 samples.

Results

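The MHC class II genes were followed as a group of 10 genes, chosen by symbol from the 54532 gene rows of each count file: H2-Aa, H2-Ab1, H2-Eb1, H2-Eb2, H2-DMa, H2-DMb1, H2-DMb2, H2-Ob, Cd74 and Ciita. Islets were isolated by collagenase from mice of 25 to 30 weeks, kept overnight in medium and then incubated for 3 h, and poly(A) RNA was sequenced. The 4 groups of 2 libraries were Sting-/- islets with DMXAA at 50 µg/mL, Sting-/- islets with DMSO, wild-type islets with DMXAA at 50 µg/mL, and wild-type islets with DMSO. DMXAA is an agonist of mouse STING, the adaptor through which cytosolic DNA sensing induces interferon genes, and DMSO is its solvent. The sources used here do not describe the knockout allele, the strain, the sex or how many mice a library came from. Each p-value therefore covers the spread among these libraries alone, and that spread may be technical.

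MHC class II molecules present peptides from endocytosed protein to CD4 T cells. An alpha and a beta chain assemble in the endoplasmic reticulum on the invariant chain, which blocks the groove and directs the complex to endosomes, where the DM heterodimer exchanges the invariant chain remnant for peptide and the DO heterodimer restrains DM. The transactivator CIITA docks on the proteins bound to the X and Y boxes of the promoters and is needed for their transcription in dendritic cells, macrophages and B cells, the main class II cells of a tissue; interferon gamma induces it in other cells.

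The libraries held between 15624020 and 19601850 counts. Summed transcripts of 10 endocrine markers (Ins1, Ins2, Iapp, Gcg and others) stood between 184600 and 364700 CPM, a unit that scales each count to the size of its library. Sting1 (Tmem173 in the annotation) had 35 and 27 counts in the knockout-labelled DMXAA libraries, 48 and 19 in the knockout-labelled DMSO libraries, 23 and 39 in the wild-type DMXAA libraries and 39 and 41 in the wild-type DMSO libraries. Its count did not set the knockout label apart, and these libraries are called knockout-labelled below. The response to DMXAA did follow the labels: Cxcl10, an interferon-induced chemokine, had 5.71 and 5.44 CPM in knockout-labelled DMXAA, 9.34 and 5.89 in knockout-labelled DMSO, 573.9 and 521.3 in wild-type DMXAA and 7.79 and 2.95 in wild-type DMSO libraries (interaction -7.12, SE 0.54, edgeR adjusted p = 0.000383). Ifnb1, which encodes interferon beta, was counted 3 and 0 times in the knockout-labelled DMXAA libraries, 1 and 0 times in knockout-labelled DMSO libraries, 536 and 261 times in wild-type DMXAA libraries, and never in wild-type DMSO libraries. The replicates of the knockout-labelled DMXAA group stood farthest apart, with a chi-square per degree of freedom of 59.8 against 7.41 to 39.6 in the other groups.

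Promoters of 7 of the 10 members were matched by symbol in RefSeq (GRCm38.p6), each 300 bases long with 250 bases before the transcription start; H2-Ab1, Cd74 and Ciita are not shown. They are printed because CIITA acts through the X and Y boxes. Among the genes shown, both motifs were found in H2-DMb1, H2-DMb2, H2-Ob and H2-Eb2, whose transcripts varied strongly between libraries. They were also found in H2-Eb1, which varied little. H2-Aa and H2-DMa, which also varied little, did not match the X letters. Those letters are a search pattern chosen with these promoters in view, so a promoter without a match may still hold an X box. A link between motifs and variation was not tested. The whole promoters of the neighbouring beta chain genes H2-Eb1 and H2-Eb2 come first, both on the plus strand, at chr17:34305617-34305916 and chr17:34325425-34325724. Capitals mark the letters AACNNNTGNTG, taken from the X box, and TGATTGG, taken from the Y box, on either strand.
H2-Eb1: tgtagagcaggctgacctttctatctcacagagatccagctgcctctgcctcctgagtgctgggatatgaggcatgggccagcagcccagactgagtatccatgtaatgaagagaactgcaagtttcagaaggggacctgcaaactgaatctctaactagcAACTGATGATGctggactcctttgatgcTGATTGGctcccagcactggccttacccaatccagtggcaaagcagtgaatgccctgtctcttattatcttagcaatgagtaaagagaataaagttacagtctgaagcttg
H2-Eb2: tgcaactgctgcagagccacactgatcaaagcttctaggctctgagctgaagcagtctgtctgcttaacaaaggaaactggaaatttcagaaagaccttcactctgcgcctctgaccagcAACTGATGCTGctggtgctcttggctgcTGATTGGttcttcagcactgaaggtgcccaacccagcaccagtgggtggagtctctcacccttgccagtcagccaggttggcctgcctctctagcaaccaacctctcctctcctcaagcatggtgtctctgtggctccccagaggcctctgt

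The same stretch of the other promoters with the Y letters was cut from shortly before the X letters to shortly after the Y letters. H2-Aa has no X letters, so the start of its stretch was set by the median X to Y distance of the members with both motifs. H2-DMb1 (chr17:34153089-34153142, plus strand), H2-DMb2 (chr17:34145118-34145171, plus strand) and H2-Ob (chr17:34238810-34238860, plus strand) held both motifs, and H2-Aa (chr17:34287859-34287911, minus strand) held the Y letters only.
H2-DMb1: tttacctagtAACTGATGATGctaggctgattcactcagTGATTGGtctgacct
H2-DMb2: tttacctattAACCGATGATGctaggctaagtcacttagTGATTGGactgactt
H2-Ob: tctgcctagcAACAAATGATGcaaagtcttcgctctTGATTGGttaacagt
H2-Aa: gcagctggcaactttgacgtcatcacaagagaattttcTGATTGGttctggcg

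The Y letters occurred in 6 of the 7 members and in 7.82% of all 32851 promoters of that length, and the X letters in 5 members and in 2.96% of promoters. The X letters lay 15 to 18 bases before the Y letters, on the same strand, in these 5 members. Such a pair, with at most 30 bases between, was found in 7 promoters, or 0.0213%; the other 2 belong to Cic and 1700048F04Rik. The letters were chosen with these promoters in view, the motifs do not overlap, and a match is a description of sequence only. Neither H2-DMa start held the letters.

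**Figure D1:**
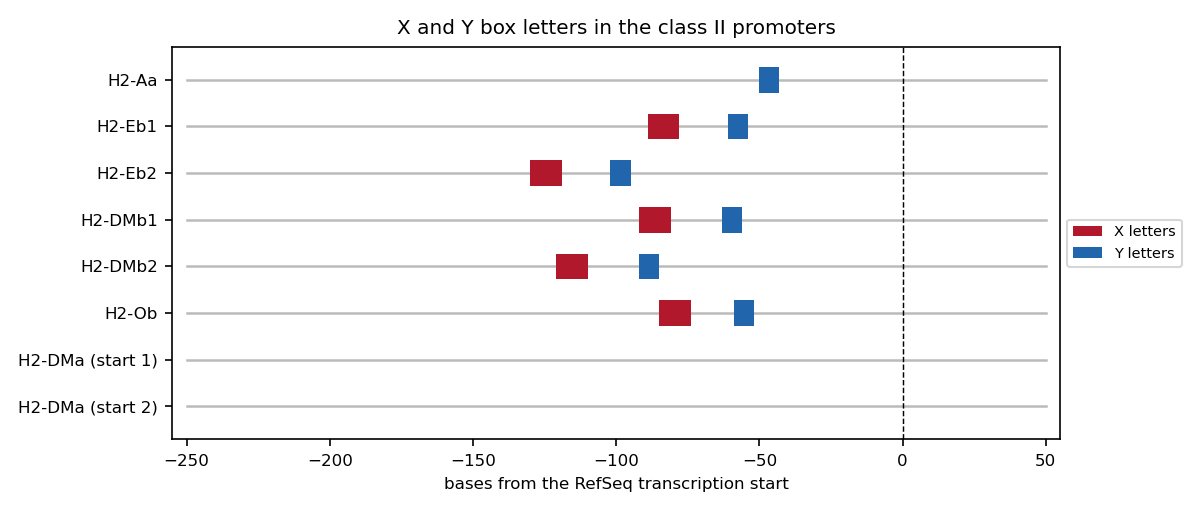
Position of the X letters (red) and Y letters (blue) in the 300 bases around each RefSeq start of 7 class II genes, in bases from the start (dashed line). In the 5 genes with both motifs, the X letters begin between 130 and 85 bases before the start, and the Y letters begin 26 to 29 bases after them; H2-Aa shows only the Y letters and H2-DMa neither.

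In mm10, 8 of the members lie on chromosome 17 between positions 34119541 and 34341412, Cd74 lies on chromosome 18 (60803848 to 60812652), and Ciita lies on chromosome 16 (10480059 to 10528418). All 10 passed the filter on low counts, but H2-DMb2 and H2-Eb2 did so only through the knockout-labelled DMSO libraries, and H2-Ob through these and 1 wild-type DMSO library. These genes were tested because they are high there, so their number among the genes tested is no support for a difference. H2-DMb1 and H2-DMb2 are near copies, with 96.0% identity over 1045 aligned bases of their transcripts, and 4.71% of the 150-base stretches of H2-DMb1 occur unchanged in H2-DMb2, so reads could be split between them. The span of H2-DMa overlaps Brd2, and that of Ciita overlaps Dexi, each on the opposite strand.

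Per kilobase of exon, Cd74 was the most abundant member at 69.4 ± 21.2 CPM per kb over the 8 libraries (SD, n = 8), above every other member in all 8. H2-Eb1 followed at 12.5 ± 3.44, H2-Ab1 at 8.69 ± 3.08 and H2-Aa at 7.17 ± 2.04 CPM per kb. H2-Eb1 was above H2-Ab1 in 8 libraries and H2-Ab1 above H2-Aa in 7, although the ranges of neighbours overlapped. H2-DMa stood at 1.62 ± 0.284 CPM per kb, and the other 5 averaged between 0.167 and 0.521 CPM per kb. Among these low genes the order changed with the library: H2-DMb2 was above H2-DMb1 in 2 of 8 libraries, and H2-Eb2 above Ciita in 3.

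H2-Aa, which encodes the alpha chain of I-A, had 26.1 and 39.7 CPM in the knockout-labelled DMXAA libraries, 32.3 and 32.8 in the knockout-labelled DMSO libraries, 16.4 and 18.9 in the wild-type DMXAA libraries and 28.7 and 23.0 in the wild-type DMSO libraries. The 2 wild-type DMXAA libraries were the lowest of the 8. H2-Ab1, the beta chain of I-A, had 19.4 and 37.5 CPM in knockout-labelled DMXAA, 27.5 and 28.0 in knockout-labelled DMSO, 15.6 and 15.8 in wild-type DMXAA and 16.5 and 18.3 in wild-type DMSO libraries. All 4 knockout-labelled libraries were above all 4 wild-type libraries. H2-Eb1, the beta chain of I-E, had 21.9 and 35.8 CPM in knockout-labelled DMXAA, 29.5 and 29.4 in knockout-labelled DMSO, 16.9 and 17.3 in wild-type DMXAA and 20.4 and 22.7 in wild-type DMSO libraries. Here 1 knockout-labelled DMXAA library lay among the wild-type DMSO values. The I-E alpha chain locus is listed as a pseudogene in the annotation (H2-Ea-ps) and had 0 counts in all 8 libraries.

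Cd74, the invariant chain, had 125.4 and 182.9 CPM in knockout-labelled DMXAA, 122.2 and 148.7 in knockout-labelled DMSO, 83.2 and 82.7 in wild-type DMXAA and 89.9 and 97.2 in wild-type DMSO libraries. The 4 knockout-labelled libraries were again all above the 4 wild-type ones. From the lowest to the highest library, the level of Cd74, H2-Aa, H2-Ab1 and H2-Eb1 varied by 2.21, 2.42, 2.41 and 2.11 times.

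H2-DMa, the alpha chain of the peptide exchange factor DM, varied least, with 5.62 and 5.85 CPM in knockout-labelled DMXAA, 6.67 and 7.13 in knockout-labelled DMSO, 5.44 and 4.21 in wild-type DMXAA and 5.10 and 4.62 in wild-type DMSO libraries. Its highest library had 1.69 times the level of its lowest, and the knockout-labelled DMSO group stood above the others. H2-DMb1, a DM beta chain, had 8 and 16 counts in knockout-labelled DMXAA, 39 and 21 in knockout-labelled DMSO, 5 and 5 in wild-type DMXAA and 16 and 4 in wild-type DMSO libraries. The knockout-labelled DMSO libraries were the highest in CPM (2.60 and 1.19), and replicate 2 of knockout-labelled DMXAA (0.936) came close to them. H2-DMb2, the other DM beta chain, had 2 and 3 counts in knockout-labelled DMXAA, 55 and 47 in knockout-labelled DMSO, 3 and 0 in wild-type DMXAA and 10 and 0 in wild-type DMSO libraries. The knockout-labelled DMSO libraries stood far above all others, and the wild-type DMSO libraries differed from each other.

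The remaining 3 genes were, like H2-DMb2, highest in the knockout-labelled DMSO group. H2-Ob, the beta chain of DO, had 7 and 3 counts in knockout-labelled DMXAA, 92 and 87 in knockout-labelled DMSO, 1 and 5 in wild-type DMXAA and 23 and 3 in wild-type DMSO libraries. H2-Eb2, a second E beta chain gene, had 1 and 2 counts in knockout-labelled DMXAA, 34 and 39 in knockout-labelled DMSO, 0 and 1 in wild-type DMXAA and 2 and 0 in wild-type DMSO libraries. Ciita had 15 and 4 counts in knockout-labelled DMXAA, 70 and 78 in knockout-labelled DMSO, 7 and 12 in wild-type DMXAA and 18 and 15 in wild-type DMSO libraries. In all of these genes the 2 knockout-labelled DMSO libraries were the highest of the 8, and neither overlapped any other group. The partner of H2-Ob, H2-Oa, had at most 6 counts in a library and was not tested.

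**Figure D2:**
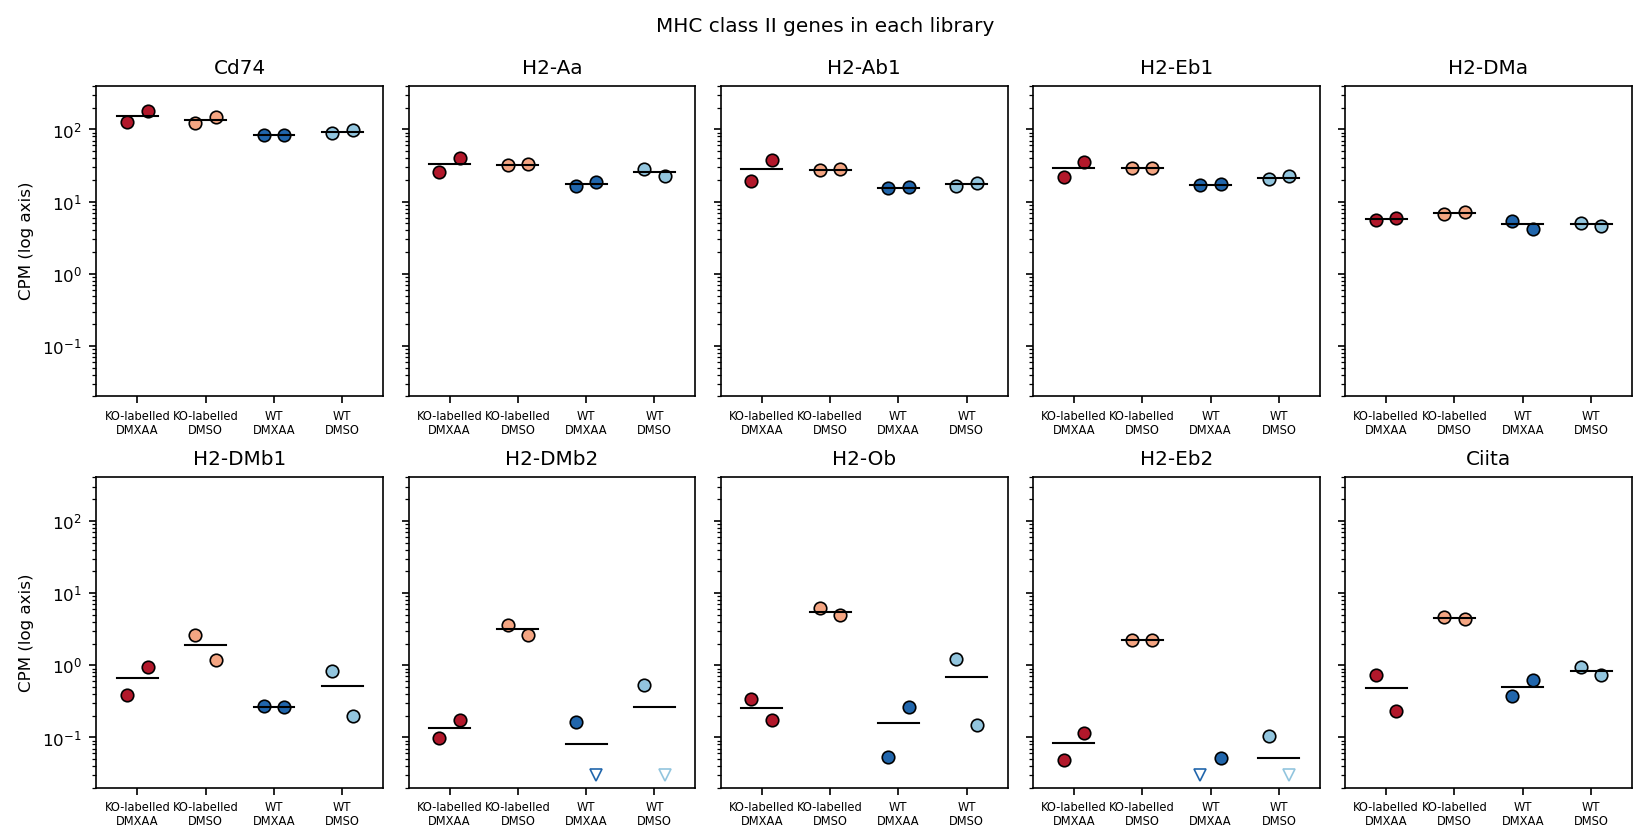
CPM of the 10 class II genes in each library on a log axis, by group; circles are libraries, black lines are group means (n = 2), and open triangles at the bottom mark libraries with 0 counts. Cd74, H2-Aa, H2-Ab1, H2-Eb1 and H2-DMa differ by at most 2.42 times between libraries, while H2-DMb2, H2-Ob, H2-Eb2 and Ciita are high only in the 2 knockout-labelled DMSO libraries.

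In knockout-labelled islets, 4 members were lower with DMXAA than with DMSO: H2-DMb2, H2-Ob, H2-Eb2 and Ciita. Ciita averaged 0.480 ± 0.348 CPM with DMXAA and 4.54 ± 0.178 CPM with DMSO (SD, n = 2 each), a log2 fold change of -3.16 (SE 0.46, edgeR adjusted p = 0.0131). H2-Ob averaged 0.257 ± 0.116 CPM with DMXAA and 5.53 ± 0.855 CPM with DMSO, and fell by 4.35 on the log2 scale (SE 0.63, edgeR adjusted p = 0.0121). H2-DMb2 fell by 4.50 (SE 0.78, edgeR adjusted p = 0.024). H2-Eb2 had 3 counts over the DMXAA libraries and 73 over the DMSO libraries, which is 28.1-fold lower with DMXAA (counting interval 9.25 to 139.5, edgeR adjusted p = 0.0121). The other 6 members were not called. Their log2 fold changes were 0.01 for H2-Aa (SE 0.20), 0.03 for H2-Ab1 (SE 0.24), -0.04 for H2-Eb1 (SE 0.21) and 0.19 for Cd74 (SE 0.18). H2-DMa had -0.27 (SE 0.25) and H2-DMb1 -1.53 (SE 0.62, edgeR adjusted p = 0.59). Over all genes tested 0.211% were called lower. The groups did not overlap downward in 6 members, against 17.7% of all genes. The median log2 fold change was -0.90 over the members and 0.00 over all genes. This median and the count without overlap include H2-DMb2 and H2-Eb2, which passed the filter only through the knockout-labelled DMSO libraries. They also include H2-Ob, which passed through these and 1 wild-type DMSO library. Neither figure is therefore support for a difference of the group of genes. The calls of H2-DMb2, H2-Eb2 and H2-Ob share this limit, because their high knockout-labelled DMSO counts admitted them to the test.

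The 4 calls rest on 2 libraries a side. No member was called without either knockout-labelled DMSO library or without knockout-labelled DMXAA replicate 2, and only Ciita without replicate 1; limma-voom called none (adjusted p between 0.0822 and 0.147 for the 4) and the older edgeR fit called H2-Ob and Ciita. The fold changes themselves stayed negative under every alternative that tested them, from -4.90 to -4.10 for H2-DMb2, -4.91 to -3.98 for H2-Ob, -5.33 to -4.17 for H2-Eb2 and -4.23 to -2.61 for Ciita.

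Between the DMSO groups, the same 4 members had higher levels under the knockout label, in a comparison that shares the knockout-labelled DMSO libraries with the preceding one. H2-Eb2 had 73 counts over the knockout-labelled libraries and 2 over the wild-type libraries, 44.0-fold higher (counting interval 11.7 to 369.9, edgeR adjusted p = 0.00984). H2-DMb2 averaged 3.16 ± 0.712 CPM in knockout-labelled and 0.263 ± 0.372 CPM in wild-type islets (SD, n = 2 each; log2 fold change 3.59, SE 0.68, edgeR adjusted p = 0.0419). H2-Ob was higher by 3.04 (SE 0.52, edgeR adjusted p = 0.0314) and Ciita by 2.42 (SE 0.41, edgeR adjusted p = 0.0317) on the log2 scale. The other 6 had log2 fold changes of 0.34 for H2-Aa, 0.68 for H2-Ab1, 0.45 for H2-Eb1, 0.53 for Cd74, 0.51 for H2-DMa and 1.85 for H2-DMb1, with adjusted p from 0.279 to 0.52. All 10 members stood higher under the knockout label without overlap, as did 24.3% of all genes, while 0.182% of all genes were called higher. The median log2 fold change was 1.26 over the members and 0.00 over all genes. This median and the count without overlap include H2-DMb2 and H2-Eb2, which passed the filter only through the knockout-labelled DMSO libraries. They also include H2-Ob, which passed through these and 1 wild-type DMSO library. Neither figure is therefore support for a difference of the group of genes. The calls of H2-DMb2, H2-Eb2 and H2-Ob share this limit here too.

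No member was called without either knockout-labelled DMSO library, by limma-voom or by the older edgeR fit. Leaving out replicate 2 of wild-type DMSO kept H2-Ob and H2-Eb2 only, replicate 1 of that group ended the call of Ciita (adjusted p = 0.124), and replicate 2 of knockout-labelled DMXAA that of H2-DMb2 (adjusted p = 0.0514). Under every alternative that tested them, the log2 fold changes stayed positive, at 2.25 to 2.60 for Ciita and no lower than 2.18 for H2-Ob, 2.56 for H2-DMb2 and 4.32 for H2-Eb2.

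The sum of B-lineage markers was highest in the same group as these 4 genes, the knockout-labelled DMSO group. Summed over 15 markers, the knockout-labelled DMXAA libraries held 7.31 and 12.0 CPM, the knockout-labelled DMSO libraries 140.2 and 112.6, the wild-type DMXAA libraries 5.06 and 8.59, and the wild-type DMSO libraries 46.8 and 4.72 CPM. The sum of H2-Eb2, H2-DMb2, H2-Ob and Ciita was 1.21 and 0.702 CPM in knockout-labelled DMXAA, 16.7 and 14.2 CPM in knockout-labelled DMSO, 0.592 and 0.937 CPM in wild-type DMXAA, and 2.79 and 0.886 CPM in wild-type DMSO libraries. Both sums were highest in the 2 knockout-labelled DMSO libraries and next in wild-type DMSO replicate 1. Of the 13 B-lineage markers tested, 7 were lower with DMXAA in knockout-labelled islets, among them Ighd (log2 fold change -5.26) and Fcrla (-6.54). Between the DMSO groups, Ighd, Fcrla and Cd79a were higher under the knockout label, by 3.66, 3.31 and 2.94 on the log2 scale. No B-lineage marker was at 0 in both libraries of any group except Fcrla and Blk in wild-type DMXAA. T cell markers summed to 2.76 and 2.75 CPM in knockout-labelled DMXAA, 10.3 and 8.27 in knockout-labelled DMSO, 2.31 and 3.80 in wild-type DMXAA and 3.26 and 1.33 in wild-type DMSO libraries. Lck made up 2.03 and 1.99 CPM of this sum in knockout-labelled DMXAA and 3.67 and 2.94 CPM in knockout-labelled DMSO libraries. In wild-type libraries Lck made up 1.67 and 3.33 CPM with DMXAA and 0.526 and 0.984 CPM with DMSO. Cd3e, another T cell marker, had 0 and 2 counts in knockout-labelled DMXAA and 20 and 22 in knockout-labelled DMSO libraries. It had 1 and 1 in wild-type DMXAA and 3 and 0 in wild-type DMSO libraries. Markers of other cell types differed between these groups too. The acinar sum reached 380.8 and 330.5 CPM for knockout-labelled DMXAA, 1397 and 2067 CPM for knockout-labelled DMSO, and 5991 and 1237 CPM for wild-type DMSO libraries, with a median log2 fold change of -2.65 with DMXAA in knockout-labelled islets. The endothelial sum reached 880.3 and 820.6 CPM for knockout-labelled DMXAA, 552.7 and 520.0 CPM for knockout-labelled DMSO, and 589.6 and 714.2 CPM for wild-type DMSO libraries, and 1 of 8, the VEGF receptor gene Kdr, was higher with DMXAA in knockout-labelled islets (log2 fold change 0.97, SE 0.15, edgeR adjusted p = 0.0151). The part of these cells in the 4 differences was not tested, and in bulk RNA fewer cells of a type and less RNA per cell cannot be told apart.

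**Figure D3:**
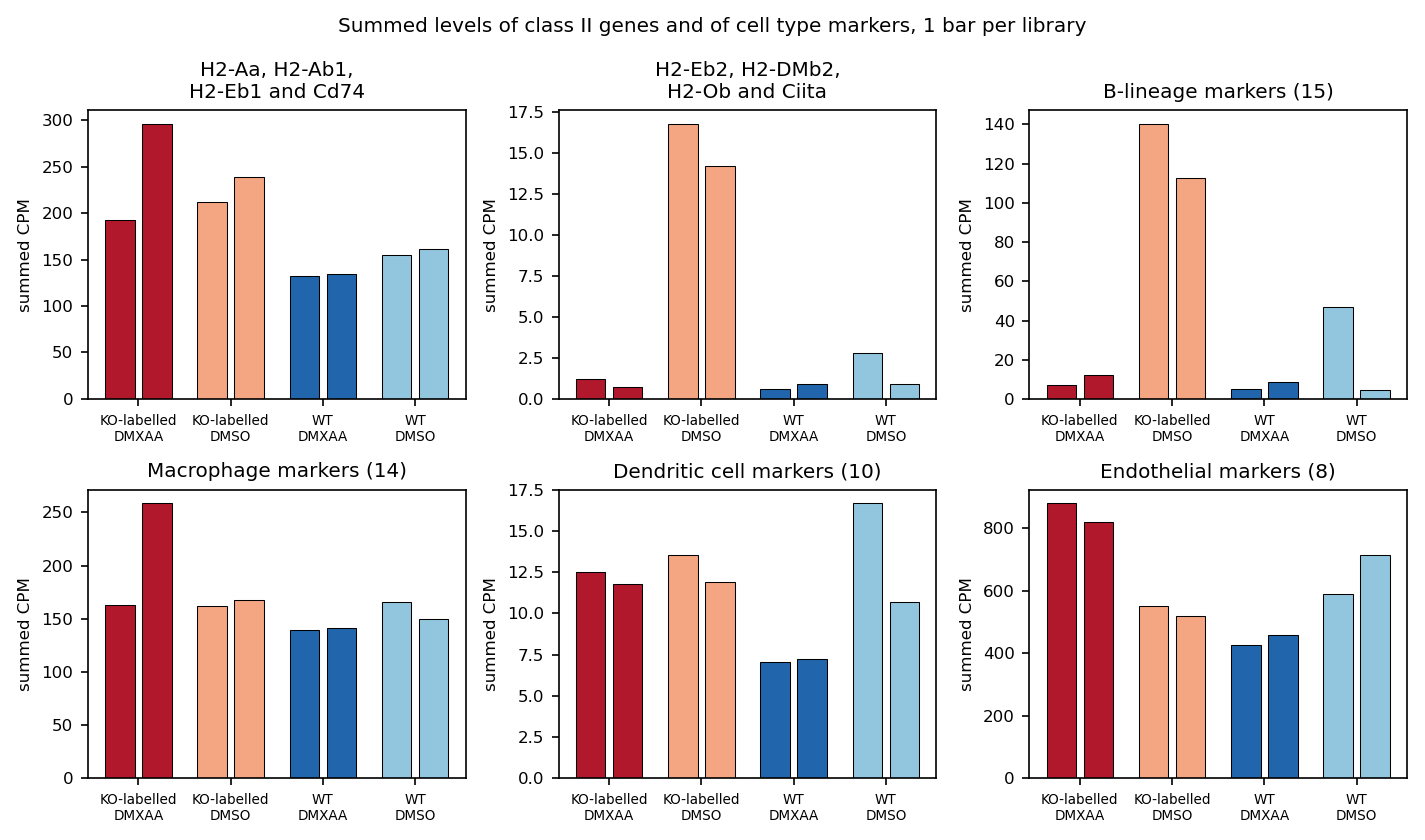
Summed CPM in each library (1 bar each, 2 per group) of 2 sets of class II genes and of 4 marker lists, with the number of markers in parentheses. H2-Eb2, H2-DMb2, H2-Ob and Ciita reach 16.7 and 14.2 CPM and the B-lineage markers 140.2 and 112.6 CPM in libraries of the knockout-labelled DMSO group, while H2-Aa, H2-Ab1, H2-Eb1 and Cd74 are highest in a knockout-labelled DMXAA library at 295.8 CPM.

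In wild-type islets, DMXAA did not raise any class II gene past the test. All 10 log2 fold changes were negative, with a median of -0.64 against 0.00 over all genes, but none was called by edgeR, DESeq2 or limma-voom, and 1 had an unadjusted p under 0.05. That gene was H2-Aa, with 17.7 ± 1.78 CPM with DMXAA and 25.8 ± 4.03 CPM with DMSO (SD, n = 2 each), a log2 fold change of -0.55 (SE 0.21, edgeR adjusted p = 0.349). H2-Eb1 averaged 17.1 ± 0.264 CPM with DMXAA and 21.5 ± 1.68 CPM with DMSO (log2 fold change -0.33, SE 0.21), Cd74 83.0 ± 0.306 CPM with DMXAA and 93.6 ± 5.10 CPM with DMSO (-0.17, SE 0.18), and H2-Ab1 15.7 ± 0.148 CPM with DMXAA and 17.4 ± 1.26 CPM with DMSO (-0.15, SE 0.25). Ciita averaged 0.501 ± 0.175 CPM with DMXAA and 0.842 ± 0.148 CPM with DMSO (-0.73, SE 0.60, edgeR adjusted p = 0.635). H2-DMa had -0.01 (SE 0.26), H2-DMb1 -0.93 (SE 0.93) and H2-Ob -2.02 (SE 1.01). H2-DMb2 had 3 counts with DMXAA and 10 with DMSO, a ratio of 3.20 (DMSO over DMXAA) with a counting interval from 0.825 to 18.1, and H2-Eb2 had 1 count with DMXAA and 2 with DMSO, too few for a fold. The groups did not overlap downward in 5 members, H2-Aa, H2-Ab1, H2-Eb1, Cd74 and Ciita, as in 23.9% of all genes, and 1.48% of all genes were called.

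The negative signs of H2-Ob, H2-DMb1 and H2-DMa turned on 1 library, and for H2-DMa also on wild-type DMXAA replicate 2. Without wild-type DMSO replicate 1, whose B-lineage sum was 46.8 CPM, the log2 fold changes were 0.11 for H2-Ob, 0.43 for H2-DMb1 and 0.07 for H2-DMa, and H2-DMb2 and H2-Eb2 had 0 counts left in the DMSO group. Among marker lists, the dendritic cell sum was 7.05 and 7.23 CPM with DMXAA and 16.7 and 10.7 CPM with DMSO, and Itgax, the integrin chain CD11c, was lower at 3.17 ± 0.298 CPM with DMXAA against 7.69 ± 0.723 CPM with DMSO (log2 fold change -1.27, SE 0.25, edgeR adjusted p = 0.0166). Itgax alone made up 2.96 and 3.38 CPM of the dendritic sum with DMXAA and 8.21 and 7.18 CPM with DMSO. In each of the 4 groups, 3 of the 10 dendritic markers had 0 counts in both libraries. Zbtb46 (log2 fold change -0.13, SE 0.34) and Ccr7 (-1.74, SE 0.87) were tested and not called. Ccr7 had 4.73 CPM in wild-type DMSO replicate 1 and 0.492 CPM in replicate 2. Untested, Clec9a, Xcr1 and Batf3 averaged 0.343, 0.104 and 0.214 CPM with DMXAA and 0.307, 0 and 0.156 CPM with DMSO. Flt3 and Siglech averaged 0.07985 and 0 CPM with DMXAA and 0.179 and 0.0246 CPM with DMSO. The macrophage sum was 139.2 and 141.2 CPM with DMXAA and 166.1 and 149.4 CPM with DMSO. None of its 14 markers was called, and their median log2 fold change was -0.33. They ranged from Lyz2 (-2.05, SE 0.69), Adgre1 (-1.17, SE 0.36) and Csf1r (-1.16, SE 0.34) to C1qa (0.46, SE 0.40) and Cd14 (0.93, SE 0.29). Whether the Itgax difference belongs to dendritic cells or to macrophages was not tested. The endothelial sum was 425.9 and 457.6 CPM with DMXAA and 589.6 and 714.2 CPM with DMSO, and 3 of its 8 markers were lower, Egfl7 (log2 fold change -1.53), Eng (-0.76) and Kdr (-0.75). The part of these cells in the class II values was not tested.

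Under DMXAA, knockout-labelled islets had higher levels of Cd74 and H2-Aa than wild-type islets. Cd74 averaged 154.1 ± 40.7 CPM in knockout-labelled and 83.0 ± 0.306 CPM in wild-type islets (SD, n = 2 each), a log2 fold change of 0.89 (SE 0.18, edgeR adjusted p = 0.0171). H2-Aa averaged 32.9 ± 9.60 CPM in knockout-labelled and 17.7 ± 1.78 CPM in wild-type islets (0.89, SE 0.21, edgeR adjusted p = 0.039). H2-Ab1 and H2-Eb1 had log2 fold changes of 0.86 (SE 0.25) and 0.75 (SE 0.21) and were not called (adjusted p = 0.112 and 0.102). The groups did not overlap in these 4 genes, H2-DMa and H2-DMb1, as in 23.3% of all genes, and 1.02% of all genes were called higher. H2-DMa had a log2 fold change of 0.25 (SE 0.25), H2-DMb1 1.25 (SE 0.89), H2-Ob 0.71 (SE 1.24) and Ciita 0.00 (SE 0.68). H2-DMb2 had 5 counts in knockout-labelled and 3 in wild-type islets, a ratio of 1.67 with a counting interval from 0.325 to 10.8, and H2-Eb2 had 3 counts in knockout-labelled and 1 in wild-type islets. The median was 0.80 over the members and 0.04 over all genes.

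Both calls depended on the libraries compared. H2-Aa and Cd74 were lost without either wild-type DMXAA library or without knockout-labelled DMXAA replicate 2 (log2 fold change of Cd74 0.59, adjusted p = 0.14), and H2-Aa also without either knockout-labelled DMSO library (adjusted p = 0.0945 and 0.0964), whereas H2-Ab1 and H2-Eb1 joined them without knockout-labelled DMXAA replicate 1 (adjusted p = 0.00208 and 0.00522) and with DESeq2. B-lineage markers were low in all 4 libraries of this comparison, at 7.31 and 12.0 CPM in the knockout-labelled and 5.06 and 8.59 CPM in the wild-type libraries. Macrophage markers summed to 162.8 and 258.4 CPM in knockout-labelled and 139.2 and 141.2 CPM in wild-type libraries, with 1 of 14 called, the lysosomal glycoprotein gene Cd68 (log2 fold change 0.92). Dendritic markers summed to 12.5 and 11.8 CPM in knockout-labelled and 7.05 and 7.23 CPM in wild-type libraries. Of the 3 tested, 1 was called, Itgax, higher by 1.41 (SE 0.25, edgeR adjusted p = 0.0057). Itgax alone made up 8.62 and 8.31 CPM of this sum in knockout-labelled and 2.96 and 3.38 CPM in wild-type libraries. Endothelial markers summed to 880.3 and 820.6 CPM in knockout-labelled and 425.9 and 457.6 CPM in wild-type libraries, with 6 of 8 called higher. Acinar markers summed to 380.8 and 330.5 CPM in knockout-labelled and 1410 and 2593 CPM in wild-type libraries. The part of these cell types in the class II difference was not tested.

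**Figure D4:**
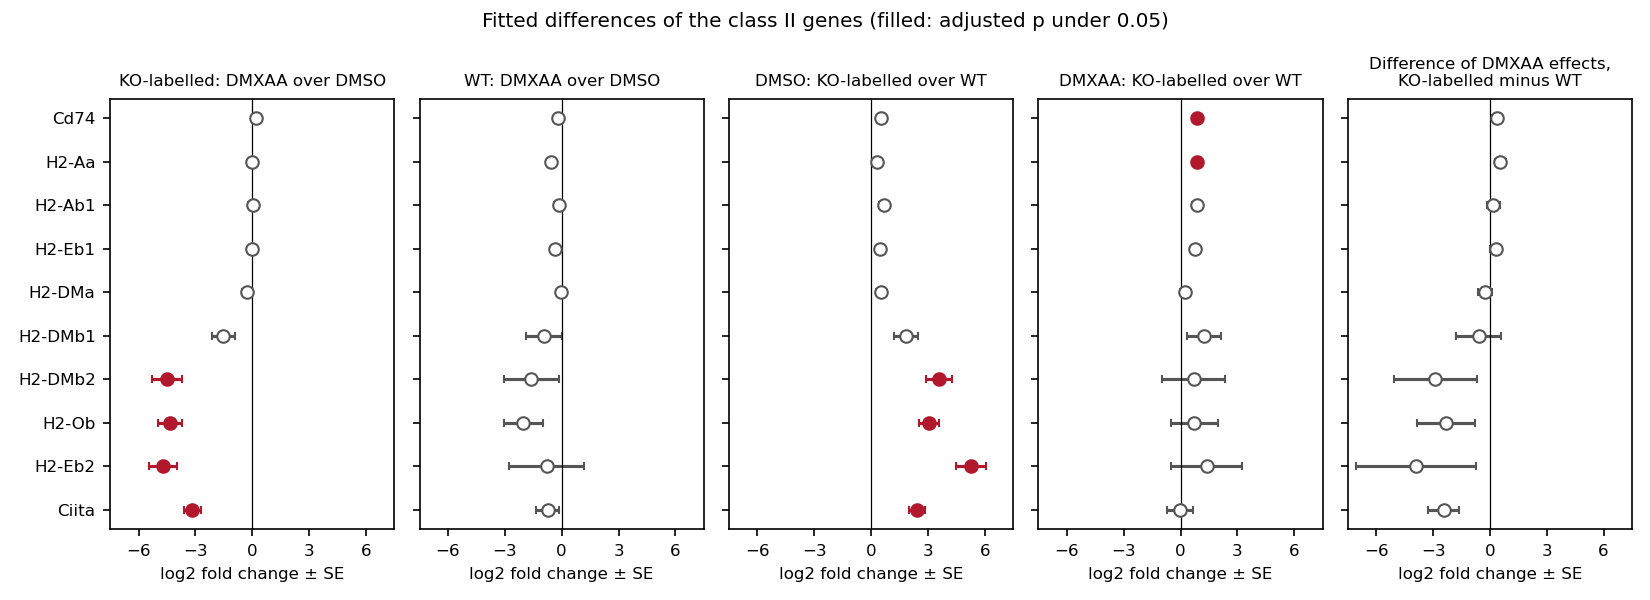
Fitted log2 fold change of each class II gene with its SE in 5 comparisons; filled red points have an edgeR adjusted p under 0.05. H2-DMb2, H2-Ob, H2-Eb2 and Ciita are called in the 2 comparisons that include the knockout-labelled DMSO libraries on 1 side, Cd74 and H2-Aa between genotype labels under DMXAA, and no gene in the others; fits of H2-Eb2 between groups of 3 counts or fewer are poorly determined.

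The difference between the DMXAA effects, in knockout-labelled minus wild-type islets, was tested as an interaction. None of the 10 members was called by edgeR, DESeq2 or limma-voom, and 1 had an unadjusted p under 0.05, against 1.2% of all genes called. That gene was Ciita, with a difference of -2.43 (SE 0.82, edgeR adjusted p = 0.307). H2-Aa had 0.56 (SE 0.29), Cd74 0.36 (SE 0.25), H2-Eb1 0.30 (SE 0.30), H2-Ab1 0.18 (SE 0.35) and H2-DMa -0.26 (SE 0.36). The SE of H2-DMb1, H2-Ob, H2-DMb2 and H2-Eb2 lay between 1.19 and 3.17, so that differences of several log2 units could not be resolved. A DMXAA effect on class II genes is thus not shown to differ between the genotype labels.

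Factors that act on class II promoters were tested beside Ciita. Irf1, an interferon-induced activator, rose with DMXAA in wild-type islets and averaged 154.9 ± 14.7 CPM with DMXAA and 44.7 ± 8.67 CPM with DMSO (SD, n = 2 each; log2 fold change 1.79, SE 0.16, edgeR adjusted p = 2.47e-05). Ciita itself was not called in that comparison. The X box binding subunit Rfx5 had a log2 fold change of 0.08 (SE 0.18). Ifng had 1 count in wild-type DMXAA replicate 1 and 0 in the other 7 libraries. In knockout-labelled islets Irf1 had a log2 fold change of -0.39 with DMXAA (SE 0.16, edgeR adjusted p = 0.59). The interaction was called for Irf1 (-2.19, edgeR adjusted p = 0.000246), which was lower in knockout-labelled islets under DMXAA (-1.22). Under DMSO, Irf1 was higher in knockout-labelled islets, at 87.7 ± 2.32 CPM against 44.7 ± 8.67 CPM in wild-type islets (0.97, SE 0.16, edgeR adjusted p = 0.0289).

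Genes of class II processing and turnover were followed as a second list. Of 11 tested, 1 was called in 1 comparison: Lgmn, an endosomal protease, was higher under the knockout label with DMXAA, at 65.0 ± 7.86 CPM in knockout-labelled against 37.3 ± 5.39 CPM in wild-type islets (SD, n = 2 each; log2 fold change 0.80, SE 0.16, edgeR adjusted p = 0.0138). Ctss, the protease that trims the invariant chain, stood at 38.3 ± 9.35 CPM in knockout-labelled and 21.7 ± 2.81 CPM in wild-type islets (0.82, SE 0.20, adjusted p = 0.0531). The list had a median of 0.54 there, against 0.04 over all genes, and between -0.23 and 0.15 in the DMXAA comparisons of either label.

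The profile of H2-Aa, H2-Ab1, H2-Eb1 and Cd74 over the 8 libraries was also set against 14412 other genes. Likeness was measured as the root-mean-square difference in centred log2 values; the 4 genes themselves lay between 0.0629 and 0.13 from their mean, and a gene that does not vary would lie at 0.381. The nearest genes were Gdf15, a secreted stress cytokine (0.0888), Fth1, the ferritin heavy chain (0.0983), Hebp1 (0.115), Nsmce1 (0.129), Id3 (0.132), Gstm2-ps1 (0.134), Dusp5 (0.139) and Akr1c12 (0.142). Fth1 averaged 835.7 CPM in knockout-labelled DMXAA, 749.1 in knockout-labelled DMSO, 486.2 in wild-type DMXAA and 558.2 in wild-type DMSO libraries. The other class II members lay farther off, with 0.275 for H2-DMa, 0.516 for H2-DMb1, 0.864 for H2-Eb2, 0.945 for Ciita, 1.001 for H2-DMb2 and 1.22 for H2-Ob. This is a description over 8 libraries that share their scaling.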

How the data were processed

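The deposited files hold 1 raw read count per Ensembl gene for each of 8 libraries, with 54532 identifiers and no row of unassigned reads. Per the submitters' processing notes, the authors used HISAT2 and HTSeq with build mm10. The strand setting, the annotation release and tool versions were not found in the sources used here. Without the strand setting, reads of a gene and of its antisense partner cannot be told apart. Symbols, coordinates and exon lengths came from GENCODE M21 (same build), in which 54495 identifiers had an entry. Promoter sequences came from RefSeq (GRCm38.p6).

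The tools were R 4.3.3 with edgeR 4.0.16 and limma 3.58.1. The filterByExpr function kept 17055 genes, and libraries were scaled by TMM. CPM values are those of edgeR's cpm function on the scaled library sizes, and CPM per kb divides them by the length of all annotated exons. All 8 libraries entered a single fit with a coefficient for each group (4 residual degrees of freedom); each contrast had a quasi-likelihood F-test (legacy=FALSE). P-values were adjusted by Benjamini-Hochberg over all genes tested, and a gene is called at an adjusted p under 0.05. The SE of a log2 fold change is its size over the root of F. Intervals of count ratios are exact binomial at 95% and cover counting error only. The steps were tested on simulated counts.

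The members, gene lists and motif letters were chosen with earlier results of these data known. All 10 members are named, called or not; of each list, called genes are named, with others only as values, and some list genes are not reported here. Like profiles were the 8 genes with the smallest root-mean-square difference in centred log2(CPM + 0.5) from the mean of H2-Aa, H2-Ab1, H2-Eb1 and Cd74, among genes of at least 1 CPM. The alternatives were RLE size factors, no filter, a stricter filter, DESeq2 1.42.0, limma-voom, the older form of the edgeR fit, the replicate number as a block, and each library left out in turn.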

Additional observations from a re-analysis of the deposited data

How the results depend on the processing

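Of 733 values of the 50 member fold changes under the alternatives, 653 kept their direction and side of the threshold, 52 lost and 4 gained a call, and 24 changed sign, all of them uncalled. The cause was not tested. No member was called with DMXAA in wild-type islets, or for the interaction, under any alternative. With DMXAA in knockout-labelled islets 4 members were called; limma-voom called 0, the older edgeR fit 2, and leaving out a library 0 to 4. The stricter filter (1 CPM in 4 libraries) tested 5 members and called 0 there. Between genotype labels under DMSO 4 were called, with 0 by the stricter filter, by limma-voom and by the older edgeR fit, and 0 to 4 on leaving out a library. Between labels under DMXAA 2 were called, with 1 by the stricter filter and by limma-voom, 4 by DESeq2, and 0 to 4 on leaving out a library. Same-numbered replicates did not pair (correlation of deviations -0.125 to 0.108); the replicate block changed no member's call and gave H2-Ab1 -0.0059 with DMXAA in knockout-labelled islets, and the crossed pairing, chosen after seeing the data, called 1 member between labels under DMXAA.

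Other sign changes were H2-DMa at 0.0058 without a filter (wild-type, DMXAA), and H2-Aa at -0.0277 and H2-Ab1 at -0.0603 by limma-voom (knockout-labelled, DMXAA). On leaving out a library, the fold changes with DMXAA in wild-type islets spanned -0.20 to 0.16 for H2-DMa, -1.64 to 0.43 for H2-DMb1, -5.27 to 3.68 for H2-DMb2, -3.47 to 0.11 for H2-Ob and -3.08 to 2.30 for H2-Eb2. In knockout-labelled islets they spanned -0.30 to 0.29 for H2-Aa, -0.50 to 0.44 for H2-Ab1, -0.41 to 0.28 for H2-Eb1 and -0.0929 to 0.44 for Cd74. For the interaction they spanned -1.95 to 0.12 for H2-DMb1, -8.17 to 0.77 for H2-DMb2, -0.36 to 0.59 for H2-Ab1 and -0.0855 to 0.62 for H2-Eb1. Between labels under DMXAA they spanned -0.27 to 4.36 for H2-DMb2 and -1.08 to 0.52 for Ciita. Values of H2-DMb2 and H2-Eb2 rest on few or 0 counts. Over all genes, the called number moved from 253 to between 160 and 994 with DMXAA in wild-type islets, from 64 to between 0 and 177 in knockout-labelled islets, from 204 to between 87 and 313 for the interaction, from 38 to between 3 and 240 between labels under DMSO, and from 407 to between 205 and 674 under DMXAA.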

Other observations

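The 2 wild-type DMSO libraries differed in the class II genes that were high in the knockout-labelled DMSO group. Replicate 1 had 23 counts of H2-Ob, 10 of H2-DMb2 and 16 of H2-DMb1, and replicate 2 had 3, 0 and 4, while Ciita had 18 and 15 counts. In the same libraries Ighm had 327 and 26 counts, Igkc 331 and 15, and the lymphoid homing receptor gene Ccr7 90 and 10. The acinar sum was 5991 CPM in replicate 1 and 1237 CPM in replicate 2. H2-Aa, H2-Ab1, H2-Eb1 and Cd74 together were at 155.4 and 161.1 CPM.

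Cd79a departed from most other B-lineage markers. It had 74 and 155 counts in the knockout-labelled DMXAA libraries, where the other 14 markers together reached 3.73 and 2.93 CPM, and 206 and 213 counts in the knockout-labelled DMSO libraries, where they reached 126.4 and 100.5 CPM. Cd22 was another exception, with 7 and 20 counts in knockout-labelled DMXAA and 48 and 41 in knockout-labelled DMSO libraries. Its log2 fold change there was -1.91 (SE 0.69), against a median of -5.15 over the tested B-lineage markers.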
